A study of Mus musculus with 4 samples.

Results

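The polycystins, the transient receptor potential (TRP) channels related to them and the mucolipins were examined in late 2-cell mouse embryos with and without Mdivi-1. The 10 genes, *Pkd1*, *Pkd2*, *Pkd2l1*, *Pkd2l2*, *Trpm7*, *Trpm4*, *Trpv3*, *Mcoln1*, *Mcoln2* and *Mcoln3*, were found by their symbols among the 26022 genes of the deposited count table. They were chosen by family and with earlier values of these libraries known, in which *Pkd2l2* was abundant and higher in treated embryos. Their differences between the groups are therefore given as a description, with fold changes and standard errors and no p-values, and the calls that the fit over all genes made among them are counted once without being read as a result.

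Zygotes came from superovulated female ICR mice aged 7 to 8 weeks that had mated with ICR males, and were cultured in KSOM medium. The control group, 2 libraries, was grown without the drug, and the Mdivi-1 group, 2 libraries, with Mdivi-1 at 200 μM. Mdivi-1 is a small molecule used to inhibit DRP1, the GTPase that divides mitochondria. The labels call the groups genotypes, but no gene was altered in either group, so no targeted gene could check the labels. Embryos were collected after 16 h of culture, with 8 to 10 pooled for each group, and their RNA was amplified by Smart-Seq2, a method for very small samples. Neither the labels nor the methods say if the replicates came from separate litters or if the control medium held the solvent, and p-values measure only the spread between these libraries, which may be technical. Because embryos were pooled, a change in every embryo and a larger change in some of them cannot be told apart, and the same holds for fewer cells and less RNA per cell.

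Polycystins fall into receptor-like proteins, such as polycystin-1 (*Pkd1*), and the channel subunits of the TRPP group (*Pkd2*, *Pkd2l1*, *Pkd2l2*). Polycystin-1 and polycystin-2 work together in primary cilia, and mutations in their genes cause polycystic kidney disease. TRPM7 is a channel for calcium, magnesium and zinc that carries its own kinase domain, and mouse eggs use it for calcium entry after fertilization. Mucolipins are the TRP channels of lysosomes and endosomes, through which calcium leaves these organelles.

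The total count per library was 17712075 to 20077326, and 14793 to 16311 genes had at least 1 count. Of the 10 genes, 7 passed the filter on low counts (*Pkd1*, *Pkd2*, *Pkd2l1*, *Pkd2l2*, *Trpm7*, *Trpv3* and *Mcoln1*), and *Trpm4*, *Mcoln2* and *Mcoln3* did not. Levels are given as CPM, the counts scaled to the TMM-adjusted size of each library, in which 1 count was worth 0.0455 to 0.0656 CPM. The labelled stage was checked with marker lists. Stored oocyte transcripts summed to 16030 and 24720 CPM in controls and 19680 and 21780 CPM in treated embryos, so that the groups overlapped. Of these, *Dppa3* alone gave 13040 and 21230 CPM in controls and 13250 and 10870 CPM in treated embryos. The other oocyte genes summed to 2989 and 3488 CPM in controls and 6425 and 10920 CPM in treated embryos. The largest of them in every library was *Tcl1*, at 1444 and 1433 CPM in controls and 2829 and 4987 CPM in treated embryos. The 2-cell stage transcripts summed to 1558 and 2427 CPM in controls and 3160 and 3904 CPM in treated embryos. The oocyte sum without *Dppa3* and the 2-cell sum were thus higher in treated embryos, while the oocyte sum with *Dppa3* was not. A difference in stage between the groups was not tested. Cumulus and granulosa cell markers summed to 20.3 and 35.4 CPM in controls and 29.7 and 28.3 CPM in treated embryos, with *Has2*, *Ptx3*, *Amh* and *Inha* at 0 in all libraries. Sperm and spermatid markers summed to 5.01 and 6.30 CPM in controls and 10.9 and 2.76 CPM in treated embryos, with *Tnp2* and *Spaca1* at 0 in all libraries.

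To order the genes by level, CPM was divided by the length of all annotated exons of a gene in kilobases. *Pkd2l2* stood first in every library, at 28.96 and 34.04 CPM per kb in controls and 136.2 and 200 CPM per kb in Mdivi-1 libraries. *Trpm7* stood second in every library, at 14.51 and 12.59 CPM per kb in controls and 9.03 and 11.14 CPM per kb in Mdivi-1 libraries. The lowest library of *Pkd2l2* lay above the highest of *Trpm7*. All other genes were below 1 CPM per kb in every library. Averaged over the 4 libraries, *Pkd1* had 0.586, *Pkd2l1* 0.368, *Pkd2* 0.349 and *Trpv3* 0.335 CPM per kb, and their ranges over libraries overlapped, so that the order among them was not larger than their spread. *Mcoln1* followed at 0.109 CPM per kb, with a range of 0.0955 to 0.124, then *Mcoln2* at 0.0867 and *Trpm4* at 0.0254, which rested mainly on a single library each, and *Mcoln3* at 0.

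**Figure D1:**
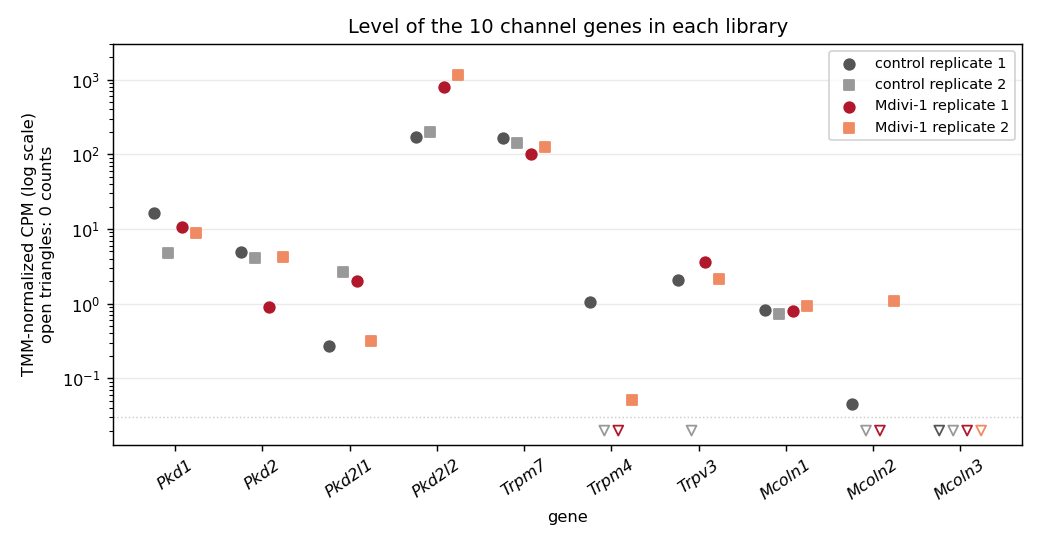
The plot gives the level of each of the 10 genes in each of the 4 libraries, as CPM on a log axis with open triangles for 0 counts, with 1 point per library coloured by group. *Pkd2l2* and *Trpm7* lie above 100 CPM in all 4 libraries, *Pkd2l2* is the only gene of the 10 with both treated libraries several times above both controls, and the other genes lie below 17 CPM.

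Most counts of the 10 genes came from *Pkd2l2* and *Trpm7*. The 10 were chosen with *Pkd2l2* known as abundant and higher in treated embryos. Its share and the change of that share are therefore a description. Other TRP and polycystin-1-like genes are not in the sum. Counts of the 10 genes summed to 7866 and 5370 in controls and to 16968 and 25026 in Mdivi-1 libraries. *Pkd2l2* and *Trpm7* together made up the following shares of that sum: 92.8% (92.2 to 93.4) and 96.5% (96.0 to 97.0) in controls and 98.0% (97.8 to 98.2) and 98.6% (98.5 to 98.8) in treated embryos. *Pkd2l2* alone made up 46.9% (45.8 to 48.1) and 56.1% (54.7 to 57.4) in controls and 86.8% (86.3 to 87.3) and 89.0% (88.6 to 89.4) in treated embryos. The brackets are 95% Wilson intervals, which cover counting error only.

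*Pkd2l2* (ENSMUSG00000014503), a member of the TRPP group known for its expression in testis, lies on the plus strand of chromosome 18 from 34408489 to 34444116 in GRCm38. It had 3693 and 3011 counts in control replicates 1 and 2, and 14732 and 22267 counts in Mdivi-1 replicates 1 and 2. In CPM these were 168.1 and 197.6 in controls and 790.7 and 1161 in treated embryos. Both treated libraries lay above both controls, and the gap between the groups was larger than the spread within either. The mean was 182.8 ± 20.9 CPM in controls and 975.7 ± 261.5 CPM in treated embryos (SD, n = 2 each), 5.34 times as high. On the log2 scale the difference was 2.42 with a standard error of 0.35. Within a group, the higher library was 1.18 times the lower in controls and 1.47 times the lower in treated embryos.

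Among all genes of the table, *Pkd2l2* ranked 1009 and 947 by CPM, without regard to length, in controls and 121 and 78 in Mdivi-1 libraries. Set against *Trpm7* in the same library, which does not depend on the scaling between libraries, its counts were 1.02 and 1.39 times those of *Trpm7* in controls and 7.74 and 9.21 times in treated embryos. These ratios do not regard length, with 5.8 kb of exons in *Pkd2l2* and 11.3 kb in *Trpm7*. They also hold the lower level of *Trpm7* in treated embryos, whose mean was 0.744 times that of controls. By log2 fold change *Pkd2l2* ranked 678 among the 14259 genes tested and 4 among the 1735 of them with at least 100 CPM on average over the 4 libraries. Since *Pkd2l2* was chosen as abundant and higher in treated embryos, these ranks restate the choice and are not a result.

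The exons of *Pkd2l2* overlap those of *Fam13b*, on the opposite strand, over 631 bases, and Smart-Seq2 keeps no strand. *Fam13b* was at 38.8 and 14.2 CPM in controls and 26.9 and 36.3 CPM in treated embryos, with overlapping groups. The nearest protein-coding gene below it, *Reep5*, 34419 bases away, was at 13.2 and 15.2 CPM in controls and 18.4 and 16.6 CPM in treated embryos. The nearest above it, *Wnt8a*, 98197 bases away, had no more than 0.364 CPM in any library. The log2 fold change was 0.25 for *Fam13b* and 0.30 for *Reep5*, against 2.42 for *Pkd2l2*. The part of shared reads in the value of *Pkd2l2* was not tested.

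The 5 genes whose pattern was most like that of *Pkd2l2* were found among 6791 genes with at least 10 CPM on average. This number leaves out the 10 members, genes with no symbol and gene models with Gm or Rik names. The measure was the root mean square difference of log2 CPM, each centred on the gene's own mean over the 4 libraries. *Nr2e1*, which encodes a nuclear receptor of neural stem cells, was the closest, with a difference of 0.0995. It was at 12.4 and 14.0 CPM in controls and 49.2 and 84.8 CPM in treated embryos. *Lef1*, a transcription factor of Wnt signalling, followed with a difference of 0.128, at 8.92 and 11.1 CPM in controls and 35.4 and 62.6 CPM in treated embryos. *Car9*, a carbonic anhydrase, *Mipep*, a mitochondrial peptidase, and *Nlrp4e*, an NLR family gene of oocytes, came next with differences of 0.158, 0.173 and 0.176. Their log2 fold changes were 2.08 to 2.35, and with 4 libraries in 2 groups the likeness mostly reflects the size of the difference between groups. *Nlrp4e* has near-identical relatives that can lose or share reads in a count of uniquely mapped reads.

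**Figure D2:**
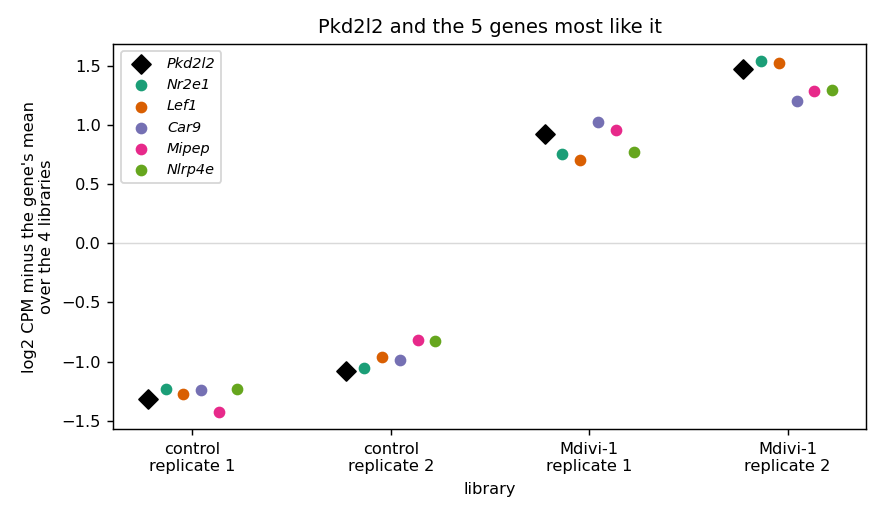
For *Pkd2l2* (diamonds) and the 5 genes most like it (circles), the plot gives log2 CPM minus the gene's own mean over the 4 libraries, by library. *Pkd2l2* moves from -1.31 and -1.08 in the controls to 0.92 and 1.47 in the Mdivi-1 libraries, and the 5 genes lie close to it in each.

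The receptor and the other polycystin channels were low. *Pkd1* (ENSMUSG00000032855, chromosome 17, 24549834 to 24596508, plus strand) had 365 and 73 counts in control replicates 1 and 2, and 196 and 171 counts in Mdivi-1 replicates 1 and 2. The treated libraries, at 10.5 and 8.91 CPM, lay between the controls, at 16.6 and 4.79 CPM. The log2 fold change was -0.14 with a standard error of 0.70, and without control replicate 1 it was 1.02. The exons of *Pkd1* overlap those of *Tsc2*, a repressor of mTORC1 on the opposite strand, over 693 bases, and *Tsc2* was also highest in control replicate 1, at 15.1 CPM against 6.67 to 9.93 CPM in the others.

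*Pkd2* (ENSMUSG00000034462, chromosome 5, 104459450 to 104505819, plus strand), which encodes polycystin-2, had 107 and 63 counts in controls and 17 and 82 counts in Mdivi-1 replicates 1 and 2. Mdivi-1 replicate 1 was low at 0.912 CPM, while the other 3 libraries lay between 4.13 and 4.87 CPM. The log2 fold change of -0.79, with a standard error of 1.11, rested on that library: without Mdivi-1 replicate 1 it was -0.08, and without Mdivi-1 replicate 2 it was -2.31. *Pkd2l1* (ENSMUSG00000037578, chromosome 19, 44147637 to 44192442, minus strand), the TRPP channel of cells that contact cerebrospinal fluid, had 6 and 40 counts in controls and 37 and 6 counts in treated embryos. Each group held a library near 2 CPM or above and a library near 0.3 CPM, so that the groups overlapped fully. Its log2 fold change was -0.33 with a standard error of 1.81, and ranged from -2.18 without Mdivi-1 replicate 1 to 2.03 without control replicate 2. The direction of *Pkd1* and *Pkd2l1* thus turned with the library left out.

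*Trpm7* (ENSMUSG00000027365, chromosome 2, 126791565 to 126876230, minus strand) was the other abundant channel gene and was measured with little spread. It had 3607 and 2172 counts in control replicates 1 and 2, and 1904 and 2419 counts in Mdivi-1 replicates 1 and 2. In CPM these were 164.1 and 142.5 in controls and 102.2 and 126.1 in treated embryos. Both treated libraries lay below both controls. The mean was 153.3 ± 15.3 CPM in controls and 114.1 ± 16.9 CPM in treated embryos (SD, n = 2 each), with a log2 difference of -0.43 and a standard error of 0.29. Leaving out a library gave -0.60 to -0.28.

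*Trpv3* (ENSMUSG00000043029, chromosome 11, 73267388 to 73300363, plus strand), a warmth-activated channel of skin that is also present in mouse eggs, had 46 counts in control replicate 1, 0 in control replicate 2, and 67 and 41 counts in treated embryos. The treated libraries were at 3.60 and 2.14 CPM and control replicate 1 was at 2.09 CPM, so that the separation of the groups rested on the control library with no counts. A count of 0 there allows up to 3 counts, or 0.197 CPM. The log2 fold change was 1.44 with a standard error of 1.90, and 0.43 without control replicate 2. *Trpm4* (ENSMUSG00000038260, chromosome 7, 45302632 to 45333780, minus strand), a sodium-passing channel opened by calcium, had 23 counts in control replicate 1, 0 in control replicate 2, and 0 and 1 in treated embryos.

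Of the mucolipin genes, *Mcoln1* was found at a low level in all libraries. *Mcoln1* (ENSMUSG00000004567, chromosome 8, 3500457 to 3515232, plus strand), which encodes the lysosomal channel that is lost in mucolipidosis type IV, had 18 and 11 counts in controls and 15 and 18 counts in treated embryos. These were 0.819 and 0.722 CPM in controls and 0.805 and 0.938 CPM in treated embryos. The log2 fold change was 0.18 and its standard error 1.71. Its counts were too few to detect a modest difference. *Mcoln2* (ENSMUSG00000011008, chromosome 3, 146149833 to 146195513, plus strand) had 1 and 0 counts in controls and 0 and 21 counts in treated embryos, so that 1 library held nearly all of them. *Mcoln3* (ENSMUSG00000036853), 8027 bases from *Mcoln2* on the same strand, had 0 counts in every library, which allows up to 0.137 to 0.197 CPM. That limit covers counting error only.

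Transcription factors of the MiT family (TFEB, TFE3 and MITF) bind an E-box and drive many lysosomal genes, among them *Mcoln1*. Promoters, from 250 bases before to 50 bases after the RefSeq start, were in the RefSeq table (GRCm38.p6) for 7 of the 10 genes: *Pkd1*, *Pkd2*, *Trpm7*, *Trpv3*, *Mcoln1*, *Mcoln2* and *Mcoln3*. This start differs from the GENCODE gene start printed above. It lies 31 bases upstream of it in *Trpm7*, 7 to 341 bases inside the gene in *Pkd2*, *Mcoln1*, *Pkd1*, *Trpv3* and *Mcoln2*, and 4341 bases inside it in *Mcoln3*. The letters CACGTG, which read the same on both strands, were found in 4 of these 7 and in 7.15% of all 32851 promoters of the same length. The letters contain a CG, and 3 of the 4 promoters were rich in it, with 35 CG dinucleotides in *Trpm7*, 30 in *Mcoln1* and 26 in *Mcoln2*, against a median of 7 over all promoters, while *Trpv3* had 4. The part of CG content in the count of matches was not tested. The 4 are shown from 100 bases before to 50 bases after the RefSeq start, 5′ to 3′ on the gene's strand, to show where the letters lie, with CACGTG in capitals.
Trpm7 promoter, chr2:126876212-126876361, minus strand: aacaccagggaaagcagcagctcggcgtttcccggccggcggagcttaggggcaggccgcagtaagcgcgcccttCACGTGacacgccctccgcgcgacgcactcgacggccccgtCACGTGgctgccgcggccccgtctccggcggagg
Trpv3 promoter, chr11:73267420-73267569, plus strand: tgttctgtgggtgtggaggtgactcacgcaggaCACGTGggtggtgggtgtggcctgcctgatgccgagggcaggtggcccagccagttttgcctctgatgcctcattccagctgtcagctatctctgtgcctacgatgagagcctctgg
Mcoln1 promoter, chr8:3500419-3500568, plus strand: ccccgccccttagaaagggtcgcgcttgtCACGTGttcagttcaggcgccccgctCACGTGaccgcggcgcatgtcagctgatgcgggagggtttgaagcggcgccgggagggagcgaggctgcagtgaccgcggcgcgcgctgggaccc
Mcoln2 promoter, chr3:146150074-146150223, plus strand: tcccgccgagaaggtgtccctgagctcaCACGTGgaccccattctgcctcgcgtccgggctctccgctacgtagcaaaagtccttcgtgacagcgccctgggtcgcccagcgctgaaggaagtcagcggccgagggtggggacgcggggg
In *Trpm7* a match began 25 bases before the RefSeq start and another 16 bases after it. In *Mcoln1* matches began 71 and 45 bases before the start, in *Trpv3* 67 bases before and in *Mcoln2* 72 bases before. A match is a description of the letters and not a measured binding site. The 4 genes with a match differed widely in level per length, from 11.82 CPM per kb on average for *Trpm7* to 0.0867 CPM per kb for *Mcoln2*. Of the factors, *Tfe3* had 481 and 100 counts in controls and 632 and 301 counts in treated embryos, *Tfeb* had 11 counts in control replicate 1 and 0 in the others, and *Mitf* is given with its list.

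**Figure D3:**
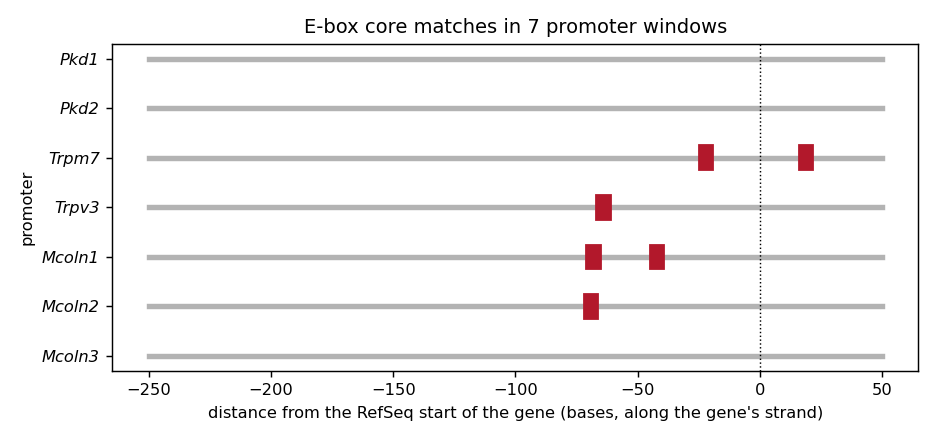
The plot marks each CACGTG match along the promoters of the 7 genes in the RefSeq table, as distance from the RefSeq start in bases. All matches lie between 72 bases before the RefSeq start and 16 bases after it, and the windows of *Pkd1*, *Pkd2* and *Mcoln3* hold none. The window of *Mcoln3* lies inside the gene as GENCODE annotates it.

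Across all genes, edgeR's quasi-likelihood test with a fold change above 2 and an adjusted p under 0.05 called 0 of 14259 genes (0%), with a smallest adjusted p of 0.109. With the same fold and an unadjusted p under 0.05 it called 1811 genes (12.7%), DESeq2 called 850 of 13706 genes with an adjusted p (6.20%), and limma-voom called 202 of 14259 (1.42%). Of the 7 genes that passed the filter, edgeR called 0 after adjustment, and at the unadjusted threshold, by DESeq2 and by limma-voom 1 was called each time, which was *Pkd2l2*. Both treated libraries lay above both controls for 26.1% of all genes tested, and for *Pkd2l2* and *Trpv3* here. Both treated libraries lay below both controls for 23.9% of all genes tested, and for *Trpm7* here. Since *Pkd2l2* was selected on this contrast, nothing is read from these counts. The log2 fold changes of the 7 ran from -0.79 to 2.42, while the median over all genes tested was 0.033.

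**Figure D4:**
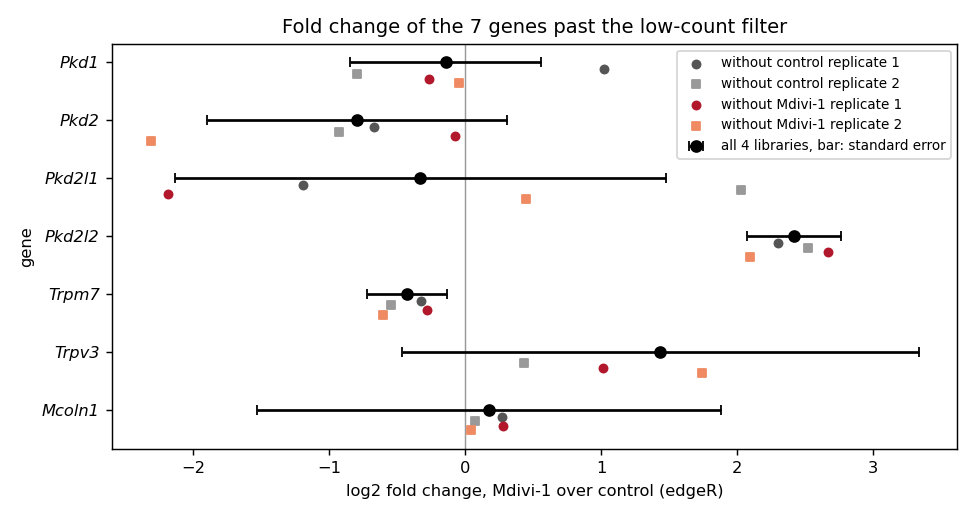
The plot gives the log2 fold change (Mdivi-1 over control, edgeR) of the 7 genes past the filter with its standard error as a bar, and the value with each library left out as coloured points. *Pkd2l2* stays between 2.10 and 2.67 and *Trpm7* between -0.60 and -0.28, while *Pkd1* and *Pkd2l1* cross 0. For *Trpv3* the value without control replicate 1 is not drawn, since the remaining control has 0 counts.

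The partners and pathway genes of these channels were described by lists. No gene of any list passed edgeR's adjusted threshold, at which edgeR called 0 genes of the whole table. The values for DESeq2 and for the unadjusted edgeR threshold are therefore given with each list. Over all genes tested, 51.3% had a positive fold change. DESeq2 called 461 genes higher and 389 lower of 13706, and the unadjusted threshold called 1012 higher and 799 lower of 14259. Of the genes related to polycystin-1 and fibrocystin, 3 of the 5 in the table passed the filter, 2 with a positive and 1 with a negative fold change and a median log2 fold change of 0.07, and 0 were called by DESeq2 or at the unadjusted threshold. *Pkhd1*, the fibrocystin gene, had 14 and 5 counts in controls and 46 and 0 counts in treated embryos. *Pkd1l2*, a polycystin-1-like gene, was at 20.5 and 16.9 CPM in controls and 19.0 and 16.8 CPM in treated embryos, so that the groups overlapped. *Pkd1l3*, whose product pairs with PKD2L1, was at 8.24 and 6.23 CPM in controls and 5.53 and 9.70 CPM in treated embryos, and its groups overlapped too. Of 19 other TRP channel genes, 10 passed the filter, 4 with a positive and 6 with a negative fold change and a median of -0.50. At the unadjusted threshold 0 were called, and DESeq2 called 0 of the 9 that had an adjusted p. *Trpc1* had 149 and 271 counts in controls and 115 and 27 counts in treated embryos, and *Trpc4* had 11 and 0 counts in controls and 51 and 85 counts in treated embryos. *Trpm8*, the cold-activated channel, had 18 and 0 counts in controls and 32 and 53 counts in treated embryos.

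For polycystin folding, trafficking and cyst genes, 20 of 21 passed the filter, 8 with a positive and 12 with a negative fold change and a median log2 fold change of -0.29 beside 0.033 for all genes. At the unadjusted threshold 1 was higher and 1 lower, and DESeq2 called 1 higher and 0 lower. *Sec61b*, a subunit of the channel that moves proteins into the endoplasmic reticulum, was at 21.6 and 49.0 CPM in controls and 97.3 and 85.9 CPM in treated embryos. For *Sec61b* the log2 fold change was 1.38, its standard error 0.43, with an adjusted p of 0.213 by edgeR and 0.0472 by DESeq2. *Ift88*, which builds cilia, was at 31.2 and 33.0 CPM in controls and 9.07 and 14.9 CPM in treated embryos, a log2 fold change of -1.42 with a standard error of 0.44 and an adjusted p of 0.213 by edgeR and 0.0874 by DESeq2. *Prkcsh*, a glucosidase subunit whose loss gives polycystic liver disease, was at 5.23 and 8.33 CPM in controls and 2.31 and 1.41 CPM in treated embryos.

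For regulators of mucolipins and other endolysosomal channels, 15 of 18 passed the filter, 7 with a positive and 8 with a negative fold change and a median log2 fold change of -0.27. At the unadjusted threshold 1 was higher and 1 lower, and DESeq2 called 0 higher and 1 lower. *Lamp2*, a major protein of the lysosomal membrane, was at 257.3 and 556.7 CPM in controls and 159.5 and 204.7 CPM in treated embryos, with an adjusted p of 0.244 by edgeR and 0.0425 by DESeq2. *Mitf* was at 10.1 and 4.33 CPM in controls and 21.3 and 20.2 CPM in treated embryos, with an adjusted p of 0.259 by edgeR and 0.171 by DESeq2. *P2rx4*, an ATP-gated channel of lysosomes, was at 23.6 and 33.8 CPM in controls and 14.4 and 18.7 CPM in treated embryos.

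Of the calcium handling genes of the egg and embryo, 24 of 28 passed the filter, 17 with a positive and 7 with a negative fold change and a median log2 fold change of 0.44. At the unadjusted threshold 3 were higher and 2 lower, and DESeq2 called 1 higher and 0 lower of the 23 that had an adjusted p. *Mcu*, the pore of the mitochondrial calcium uniporter, was at 105.4 and 55.9 CPM in controls and 204.4 and 228.0 CPM in treated embryos. For *Mcu* the log2 fold change was 1.42 with a standard error of 0.37 and an adjusted p of 0.175 by edgeR and 0.00758 by DESeq2. *Mcub*, its dominant-negative paralog, was at 10.3 and 12.1 CPM in controls and 30.7 and 22.4 CPM in treated embryos, with an adjusted p of 0.243 by edgeR and 0.185 by DESeq2. *Orai2*, a subunit of the calcium release-activated channel, had 53 and 42 counts in controls and 1 count in each treated library, with an adjusted p of 0.234 by edgeR and 0.0704 by DESeq2. Of the magnesium and zinc transporters, which carry the ions that TRPM7 also passes, 13 of 13 in the table passed the filter, 8 with a positive and 5 with a negative fold change and a median of 0.06. At the unadjusted threshold, and by DESeq2 among the 12 that had an adjusted p, 0 were higher and 1 was lower. That gene was *Magt1*, a magnesium transporter that also serves protein glycosylation, at 133.2 and 264.2 CPM in controls and 85.6 and 83.4 CPM in treated embryos, with an adjusted p of 0.212 by edgeR and 0.0286 by DESeq2. The zinc transporter genes *Slc39a10* (100.6 and 65.3 CPM in controls, 124.9 and 150.3 CPM in treated embryos) and *Slc30a1* (79.6 and 77.2 CPM, then 117.3 and 110.0 CPM) passed neither threshold. Over all alternatives the list medians turned sign for the polycystin-1-like genes (-0.15 to 0.70), the other TRP channels (-0.89 to 0.70), the mucolipin regulators (-0.62 to 0.44) and the magnesium and zinc transporters (-0.21 to 0.24), so that no direction is given for these lists. They kept their sign for the polycystin folding, trafficking and cyst genes (-0.40 to -0.11) and the calcium handling genes (0.25 to 0.67).

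Marker lists of the stage and of other cells were read beside these, and their part in the values of *Pkd2l2* and the other channel genes was not tested. Of the stored oocyte transcripts, 16 of 23 had a positive fold change, beside 51.3% of all genes tested, with a median log2 fold change of 0.44. DESeq2 called 5 of them higher and 0 lower and the unadjusted edgeR threshold 6 and 0. Of the 2-cell stage transcripts, 13 of 13 had a positive fold change, with a median of 1.15. DESeq2 again called 5 higher and 0 lower and the unadjusted threshold 6 and 0. This list was chosen with earlier results of these data known. The authors had already reported 2-cell genes such as *Zfp352* as higher in treated embryos. It also holds related copies of *Zscan4*, *Tdpoz* and *Tcstv*. Its counts are therefore a description and not independent support. *Btg4*, which promotes decay of maternal transcripts, was at 379.8 and 656.2 CPM in controls and 1650 and 3614 CPM in treated embryos, a log2 fold change of 2.35 near that of *Pkd2l2*. *Bmp15*, a growth factor gene of oocytes, was at 184.0 and 273.3 CPM in controls and 662.4 and 974.7 CPM in treated embryos, and *Zp2*, of the zona pellucida, at 21.3 and 17.3 CPM against 53.6 and 46.8 CPM. The other 7 oocyte transcripts had a negative fold change. Among them, *Zp3*, also of the zona pellucida, was at 197.6 and 269.5 CPM in controls and 149.1 and 99.2 CPM in treated embryos, a log2 fold change of -0.91. *H1f8* was at 67.1 and 87.4 CPM against 52.5 and 53.2 CPM. Of the 2-cell genes, *Zfp352* was at 211.2 and 127.7 CPM in controls and 511.6 and 496.2 CPM in treated embryos. *Zscan4f* was at 35.2 and 67.5 CPM against 143.7 and 144.7 CPM, and *Zscan4c* at 49.8 and 8.99 CPM against 140.0 and 350.3 CPM, though near-identical *Zscan4* copies can share or lose reads. Over all alternatives the oocyte median ran from 0.43 to 0.69 (0.69 without control replicate 2) and the 2-cell median from 0.76 (without control replicate 1) to 1.37.

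Of the 5 cumulus and granulosa cell markers that passed the filter, 3 had a positive and 2 a negative fold change, and DESeq2 called 0. *Star*, of steroid synthesis, was the 1 past the unadjusted threshold, with 0 and 4 counts in controls and 58 and 74 counts in treated embryos. *Amhr2*, the receptor of anti-Müllerian hormone, lay the other way, with 274 and 282 counts in controls and 144 and 107 counts in treated embryos, and *Cyp19a1*, the aromatase gene, had 27 and 7 counts against 90 and 45. Of the 4 sperm markers that passed the filter, 2 had a positive and 2 a negative fold change, and DESeq2 called 0 of the 3 that had an adjusted p. *Odf1*, of the sperm tail, was the 1 past the unadjusted threshold and had no adjusted p by DESeq2, with 15 and 19 counts in controls and 0 in treated embryos. *Prm2*, a protamine gene, had 42 and 0 counts in controls and 113 and 36 counts in treated embryos, and *Izumo1*, of sperm-egg fusion, had 27 and 21 counts against 20 and 0. The median log2 fold change was 0.55 for the cumulus and granulosa cell markers, from 0.20 without Mdivi-1 replicate 2 to 1.52 without control replicate 2. For the sperm markers it was -0.58, and ran from -7.405 without Mdivi-1 replicate 1 to 0.40 without Mdivi-1 replicate 2. Without Mdivi-1 replicate 1, the treated library that remained had 0 counts of *Odf1* and *Izumo1*. No direction is given for this list.

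**Figure D5:**
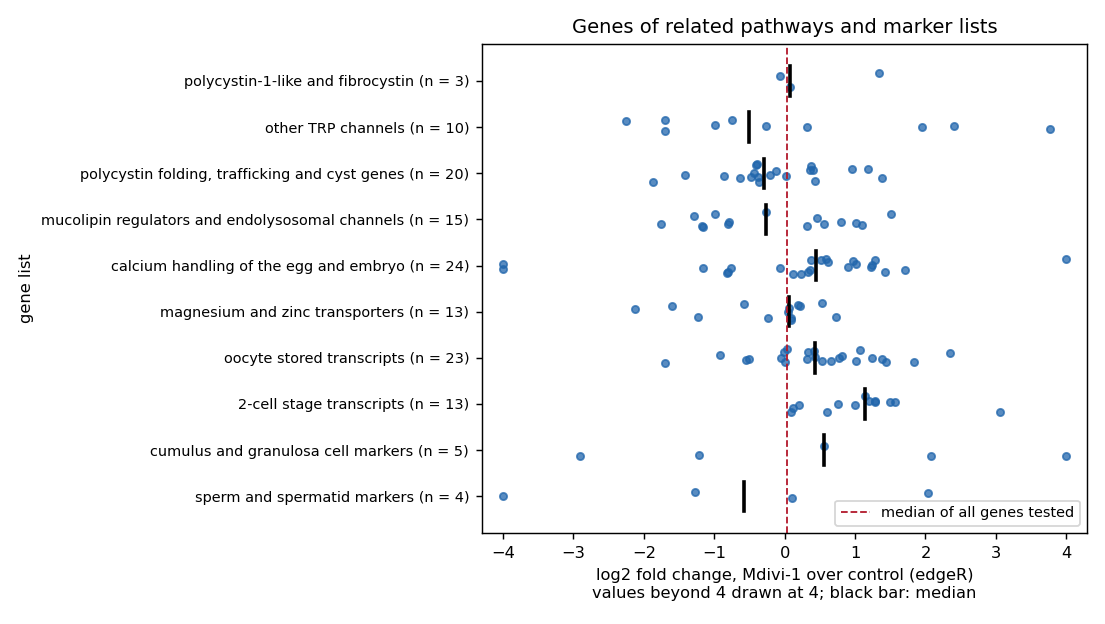
The plot gives the log2 fold change of each gene past the filter in the 10 lists, with 1 point per gene and a bar at the median of the list. Values beyond 4 in either direction are drawn at 4. The median lies at 1.15 for the 2-cell stage transcripts and between -0.58 and 0.55 for the other lists, and the line of all genes lies at 0.033.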

How the data were processed

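RNA of late 2-cell embryos was analysed in 2 control and 2 Mdivi-1 libraries, grouped by their titles. The authors trimmed reads with cutadapt (1.16 in the submitters' processing notes, which name the build mm10), mapped them with STAR (version not given in the sources used here) and deposited raw counts per gene from uniquely mapped reads. The deposited table also holds a signal, the count divided by a size factor per library, used here only to read those factors (0.848 to 1.16). It further holds the authors' DESeq2 fold changes and p-values, which were not used.

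The members and lists were chosen with earlier results of these data known. In R 4.3.3, edgeR 4.0.16 filtered the counts (filterByExpr, minimum count 10, leaving 14259 genes), scaled them by TMM (factors 0.834 to 1.10) and fitted its quasi-likelihood model, and p-values were adjusted over all genes by Benjamini and Hochberg. A call needed more than 2-fold and a p under 0.05, two-sided. Standard errors were worked back from this test. The fit was also run on simulated counts, drawn with less spread than these libraries had, so that run does not show its power here. DESeq2 1.42.0, limma-voom of limma 3.58.1, other scalings and filters, a replicate block and leaving out each library were alternatives. Coordinates and exon lengths are from GENCODE M21 on GRCm38, because only 614 of 25995 genes had the same start and end in the table. Promoters are from RefSeq. Named were all 10 members, from each list up to 3 measured genes with the smallest unadjusted p, and the 5 genes most like *Pkd2l2*. The values of *Tfe3*, *Tfeb*, *Dppa3*, *Tcl1*, *Zp3* and *H1f8* were added after they were seen. So were those of the genes next to or overlapping a member and of marker genes at 0. Protein sequences were not analysed here. Precision was limited by 2 libraries a group (biological coefficient of variation 0.66) and, for *Trpm4*, *Trpv3* and the mucolipins, by few counts.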

Additional observations from a re-analysis of the deposited data

How the results depend on the processing

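*Pkd2l2* kept its direction under every alternative run, with log2 fold changes of 2.10 (without Mdivi-1 replicate 2) to 2.67 (without Mdivi-1 replicate 1) when a library was left out, and *Trpm7* kept its direction at -0.60 to -0.28. Since *Pkd2l2* was selected on this contrast and every alternative drew on the same libraries, its kept direction is a description and not independent support. The counts of genes called depended on the test. After adjustment, edgeR called 0 genes higher and 0 lower, against 455 and 364 with no low-count filter, 461 and 389 with DESeq2 and 125 and 77 with limma-voom, and 0 to 7 higher and 0 to 3 lower when a library was left out (7 and 3 without control replicate 2), where the spread came from the intact group. At the unadjusted threshold, 1012 genes were higher and 799 lower, against 566 to 1559 and 502 to 950 when a library was left out (1559 higher without control replicate 1, 638 without Mdivi-1 replicate 2, 566 higher and 502 lower without Mdivi-1 replicate 1) and 1138 and 550 with library totals for scaling. Library totals moved the median of all genes from 0.033 to 0.14. With the replicate number as a block, 983 were higher and 709 lower at the unadjusted threshold and 0 after adjustment, and *Pkd2l2* was at 2.39. Deviations of same-numbered libraries correlated at 0.0081, which does not tell if these libraries came from the same litters.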
